A study of Mus musculus with 18 samples.

Results

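The Fcγ receptor genes of mouse monocytes were followed here: the activating α-chains *Fcgr1*, *Fcgr3* and *Fcgr4*, the inhibitory receptor *Fcgr2b*, and *Fcer1g*, the common γ-chain through which the activating receptors signal. The 5 genes were chosen by symbol from the 20298 genes of the expression table, and all 5 were found. RNA-seq was performed on 18 libraries of C57BL/6 background, in 6 groups of 3. WT and DKI monocytes, labelled Ly6C+ CCR2+ and enriched by negative selection rather than sorted, were either untreated (day 0) or kept in culture for 3 or 6 days with GM-CSF (20 ng/ml) to give monocyte-derived cells (MDCs). DKI mice are STAT5 tetramer-deficient in every cell: they carry knockin mutations in both *Stat5a* and *Stat5b* that leave STAT5 dimers intact. The age of the mice for these cultures was not given in the sources used here. The values are RPKM, the reads per kilobase of a gene scaled by the mapped reads of its library, so levels can be set side by side between genes.

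Fcγ receptors bind the constant part of IgG and link antibody to the cellular arms of immunity. The activating receptors pair with the γ-chain, whose ITAM (a tyrosine-based activation motif) recruits Src family kinases and Syk and sets off phagocytosis, oxidative burst and cytokine release. Fcgr2b carries an inhibitory motif (ITIM) in its own tail and recruits the phosphatase SHIP-1, which opposes these signals, so the ratio of activating to inhibitory receptors is commonly taken as a measure of how a cell is set to respond to immune complexes. Fcgr1 is the high-affinity receptor and binds monomeric IgG2a, Fcgr3 has low affinity and binds IgG in complexes, and Fcgr4 binds IgG2a and IgG2b with intermediate affinity and is best known from neutrophils and Ly6C-low monocytes. GM-CSF signals through STAT5 and drives monocytes toward dendritic cells or macrophages.

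All members but *Fcgr1* lie within 274 kb of chromosome 1 (GRCm38.p6, RefSeq positions). They are *Fcgr2b* (Entrez 14130, chr1:170960558-170976071, minus strand), *Fcgr4* (Entrez 246256, chr1:171018926-171029761, plus strand), *Fcgr3* (Entrez 14131, chr1:171051169-171065915, minus strand) and *Fcer1g* (Entrez 14127, chr1:171229572-171234349, minus strand). *Fcgr4* is the next gene to both other α-chains, 42855 bp from *Fcgr2b* and 21408 bp from *Fcgr3*. *Fcgr1* (Entrez 14129) lies apart on chromosome 3, at chr3:96282909-96293969 on the minus strand. The 250 bases upstream of the annotated RefSeq starts were searched on both strands for a STAT-type GAS element (TTCNNNGAA), an ETS core (GAGGAA, the core bound by PU.1) and an interferon-response core (GAAA, any 2 bases, GAAA). The windows shown are those of *Fcgr4*, the receptor gene called between the genotypes below, of *Fcgr1*, the window with a GAS match, and of the inhibitory *Fcgr2b*; capitals mark the matches, and the GAGGAA core appears as its reverse complement.
Fcgr4 upstream, chr1:171018676-171018925, plus strand: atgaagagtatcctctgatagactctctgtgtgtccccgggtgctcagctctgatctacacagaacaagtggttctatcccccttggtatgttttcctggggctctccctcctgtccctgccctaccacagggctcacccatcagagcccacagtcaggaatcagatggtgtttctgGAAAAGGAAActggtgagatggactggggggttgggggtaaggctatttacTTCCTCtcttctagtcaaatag
Fcgr1 upstream, chr3:96293970-96294219, minus strand: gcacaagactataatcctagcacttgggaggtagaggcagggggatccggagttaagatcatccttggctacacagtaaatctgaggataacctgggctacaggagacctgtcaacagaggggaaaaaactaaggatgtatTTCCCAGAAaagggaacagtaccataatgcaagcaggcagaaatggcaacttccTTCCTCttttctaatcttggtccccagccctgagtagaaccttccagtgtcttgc
Fcgr2b upstream, chr1:170976072-170976321, minus strand: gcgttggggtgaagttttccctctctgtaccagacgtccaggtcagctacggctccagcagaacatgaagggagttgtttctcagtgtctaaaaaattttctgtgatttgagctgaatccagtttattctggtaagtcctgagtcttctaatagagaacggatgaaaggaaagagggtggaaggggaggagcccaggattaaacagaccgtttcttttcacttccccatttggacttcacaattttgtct
The *Fcgr1* window held 1 GAS match, 109 bases before the start, and 1 ETS core at 55 bases. The *Fcgr4* window held 1 interferon-response core at 73 bases and 1 ETS core at 22 bases, and no GAS match. Neither the *Fcgr2b* nor the *Fcer1g* window held any of the 3 motifs, while *Fcgr3* held 1 ETS core. Among 32851 promoters, 7.02% held a GAS match, 23.3% an ETS core and 2.98% an interferon-response core, so the matches are described only as letters in the sequence; none of them overlapped another.

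The libraries held an estimated 29.5 M to 43.2 M mapped reads. Hepatocyte markers summed to only 0.13 to 0.65 RPKM in every library, and the 8 monocyte markers to 11368 to 17896 RPKM on day 0. The tissue is liver in the labels but bone marrow in the series description and the methods. *Stat5a* was at 9.37 to 14.4 RPKM in DKI and 30.2 to 58.0 in WT on day 3; the knockin leaves the transcripts in place, so this level does not check the genotype. Because the cultures are mixed, fewer cells with a receptor and less RNA per cell cannot be told apart. The series description gives 3 independent experiments. By their names, the replicate 1 libraries of GM-CSF-treated cells hold an earlier year than all others, and in DKI cells that replicate had the highest value of each of the 5 genes on both days.

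Untreated WT and DKI monocytes had closely matching Fcγ receptor mRNA. The γ-chain *Fcer1g* was the most abundant, at 561, 708 and 633 RPKM in WT replicates 1 to 3 and 585, 698 and 584 in DKI. *Fcgr3* was the leading α-chain, with 140, 230 and 188 RPKM in WT and 142, 206 and 181 in DKI, followed by *Fcgr2b* with 72.3, 74.7 and 87.2 in WT and 70.0, 65.3 and 88.4 in DKI. These 3 genes kept this order in all 6 untreated libraries without overlap between neighbours. The other activating receptors were low: *Fcgr1* was at 3.48, 14.5 and 15.1 RPKM in WT and 4.19, 17.1 and 19.8 in DKI. *Fcgr4* was at 3.86, 6.56 and 5.50 RPKM in WT and 2.92, 3.86 and 6.69 in DKI. The ranges of these last 2 genes overlapped in both genotypes. None of the 5 genes was called between the genotypes (limma on log2(RPKM + 1), called at a Benjamini-Hochberg adjusted p under 0.05 over all genes tested and a fold change above 1.5; adjusted p = 0.999985 for each), with 0% of the 9179 genes tested called and 44 genes at an unadjusted p under 0.05. *Fcgr1* was higher in DKI in 3 of 3 same-numbered pairs, by 1.18-fold to 1.31-fold, with a log2 fold change of 0.27 (SE 0.72). With the replicate number as a block in the limma fit the SE was 0.058, and it was not called (adjusted p = 0.699).

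In WT cells cultured with GM-CSF, 2 activating receptors and the inhibitory one were higher than in untreated cells, and *Fcgr4* was lower. In WT, *Fcgr2b* reached 541, 213 and 435 RPKM on day 3, all above the untreated cells, a log2 fold change of 2.23 (SE 0.34, adjusted p = 0.00218). *Fcgr3* reached 589, 408 and 606 RPKM (log2 1.52, SE 0.25, adjusted p = 0.00287). *Fcgr1* reached 84.3, 23.6 and 68.9 RPKM (log2 2.34, SE 0.63, adjusted p = 0.0208). All 3 WT libraries were above every untreated WT library for each of these genes, and 20.3% of 9938 genes were called higher. The *Fcgr1* call was lost without WT day 3 replicate 1 (adjusted p = 0.0673) or replicate 3 (adjusted p = 0.0744), and without the filter on low values (adjusted p = 0.0935). *Fcgr4* fell to 0.794, 0.829 and 0.721 RPKM, a log2 change of -1.80 (SE 0.21, adjusted p = 0.000931); 22.8% of genes were called lower. At this depth these values stand for about 29 to 39 reads per library, and in a fit of all 18 libraries the *Fcgr4* call was lost (adjusted p = 0.120). *Fcer1g*, at 548, 445 and 628 RPKM, was not called (log2 -0.24, SE 0.19, adjusted p = 0.338). No untreated culture of the same age was analysed here, so the effects of GM-CSF and of time in culture cannot be told apart.

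**Figure D1:**
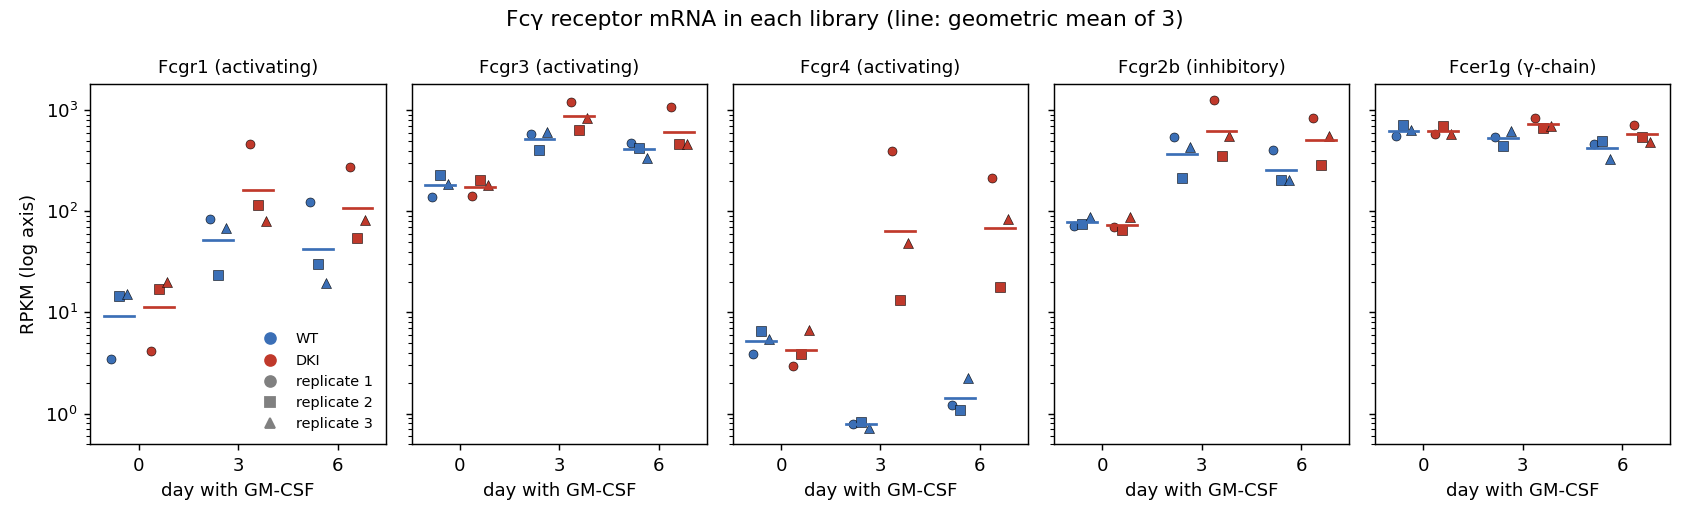
RPKM of the 5 genes in each library on a log axis, by day with GM-CSF (0, 3 or 6), with WT in blue, DKI in red, a symbol for each replicate number and a line at the geometric mean of 3. On day 3 the WT points of Fcgr4 sit between 0.721 and 0.829 RPKM and the DKI points between 13.4 and 394, whereas the other 4 genes overlap or nearly meet between the genotypes.

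In DKI cells all 3 activating α-chains rose, as did *Fcgr2b*. On day 3, DKI *Fcgr2b* was at 1264, 354 and 556 RPKM (log2 3.07 against untreated DKI cells, SE 0.46, adjusted p = 0.00492). *Fcgr3* was at 1218, 645 and 847 RPKM (log2 2.32, SE 0.29, adjusted p = 0.00316), and *Fcgr1* at 465, 114.8 and 81.0 RPKM (log2 3.72, SE 0.78, adjusted p = 0.0138). For each of them the DKI day 3 libraries lay above all untreated DKI libraries. *Fcgr4*, which had fallen in WT, was at 394, 13.4 and 48.5 RPKM (log2 3.64, SE 1.11, adjusted p = 0.0430), also above every untreated DKI library, of which the highest was at 6.69; 13.1% of 9922 genes were called higher. The *Fcgr4* call was lost without DKI day 3 replicate 3 (adjusted p = 0.0766) or without any 1 of the untreated DKI libraries (adjusted p = 0.0848 to 0.116). Without the filter on low values the *Fcgr1* and *Fcgr4* calls were both lost (adjusted p = 0.0646 and 0.145), as they were without replicate 2 of both days (adjusted p = 0.0708 and 0.0593), and without replicate 1 or 3 of both days the *Fcgr4* call was (adjusted p = 0.0633 and 0.137). *Fcer1g* was at 845, 666 and 703 RPKM and was not called (log2 0.24, SE 0.22, adjusted p = 0.403).

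No tested receptor gene was called between days 3 and 6. WT *Fcgr2b* was at 406, 206 and 206 RPKM on day 6 and DKI *Fcgr2b* at 841, 288 and 559. WT *Fcgr3* was at 477, 428 and 339 RPKM and DKI *Fcgr3* at 1078, 466 and 463. WT *Fcgr1* was at 125, 30.5 and 19.5 RPKM and DKI *Fcgr1* at 275, 54.4 and 82.7. In both genotypes *Fcgr1* varied most among replicates of the 3 genes, by 6.38-fold in WT and 5.06-fold in DKI on day 6. WT *Fcer1g* was at 467, 497 and 327 RPKM and DKI *Fcer1g* at 722, 549 and 487. *Fcgr4* was at 1.21, 1.08 and 2.25 RPKM in WT and at 215, 17.8 and 83.3 in DKI. Limma called none of the tested genes against day 3, with or without the replicate block, with 0% of 9613 genes called in WT (722 at an unadjusted p under 0.05) and 0% of 9540 in DKI (93 at an unadjusted p under 0.05); in WT *Fcgr4* had a mean under the limit of 2 RPKM on both days and was not tested, but all 3 day 6 libraries lay above all 3 day 3 libraries (1.94-fold in the means). Same-numbered day 3 and day 6 libraries deviated together (r 0.13 to 0.67 in WT and 0.32 to 0.73 in DKI). Within these pairs *Fcgr3* and *Fcer1g* in DKI and *Fcgr2b* in WT were lower on day 6 in 3 of 3, with adjusted p of 0.913, 0.913 and 0.422 with the block.

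The genotypes were then compared on each day. *Fcgr4* was the 1 receptor gene called: its log2 fold change, DKI against WT, was 5.20 on day 3 (SE 1.10, adjusted p = 0.0426) and 4.83 on day 6 (SE 0.83, adjusted p = 0.0279). Its WT means of 0.781 and 1.51 RPKM were under the limit of 2 RPKM, so *Fcgr4* passed the filter only through its DKI level. It was 1 of 5 members called on each day, where 7.42% of 9740 genes were called on day 3 and 7.54% of 9842 on day 6. The same-numbered pairs differed 496-fold, 16.2-fold and 67.2-fold on day 3 and 178-fold, 16.5-fold and 37.1-fold on day 6, so every pair had the same direction while the size varied widely. The scale understates such a low gene: with a pseudocount of 0.1 in place of 1, the log2 fold changes were 6.18 and 5.48. Without the filter on low values neither call held (adjusted p = 0.161 and 0.115). The replicate block left the day 6 call (adjusted p = 0.0358) but not the day 3 call (adjusted p = 0.0569). On day 3 the call was lost without any 1 WT library (adjusted p = 0.128 to 0.134) or without DKI replicate 3 (adjusted p = 0.0761), and on day 6 without any 1 WT library (adjusted p = 0.0590 to 0.0993) or without DKI replicate 3 (adjusted p = 0.0931). Without replicate 1 of both genotypes, whose library names carry the earlier year, the log2 fold change was 3.91 on day 3 (adjusted p = 0.0507) and 3.94 on day 6 (adjusted p = 0.147), and without replicate 2 of both it was 6.31 (adjusted p = 0.0975) and 5.66 (adjusted p = 0.0248). Without replicate 3 of both it was 5.38 (adjusted p = 0.213) and 4.89 (adjusted p = 0.244).

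The other 4 genes were higher in DKI than in WT in 3 of 3 same-numbered pairs on both days but did not pass the test. For *Fcgr1* the log2 fold change was 1.64 on day 3 (SE 0.76, adjusted p = 0.230) and 1.33 on day 6 (adjusted p = 0.340). For *Fcgr2b*, the inhibitory receptor, it was 0.77 (adjusted p = 0.426) and 0.99 (adjusted p = 0.216). For *Fcgr3* it was 0.73 (adjusted p = 0.208) and 0.58 (adjusted p = 0.350). For the γ-chain *Fcer1g* it was 0.46 (adjusted p = 0.280) and 0.45 (adjusted p = 0.297). With the replicate block none of the 4 was called on either day. The blocked adjusted p on days 3 and 6 was 0.130 and 0.0592 for *Fcgr1* and 0.159 and 0.0784 for *Fcgr2b*. It was 0.156 and 0.204 for *Fcgr3* and 0.288 and 0.193 for *Fcer1g*. The median log2 fold change over the 5 members was 0.77 on day 3 and 0.99 on day 6, against -0.11 and -0.17 over all genes tested. *Fcgr3*, *Fcgr4* and *Fcer1g* had every DKI library above every WT library on day 3, as had 13.4% of all genes tested, and on day 6 *Fcgr4* alone did, with 10.6% of genes. The lowest DKI *Fcgr3* value on day 3 was 645 RPKM and the highest WT value 606.

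**Figure D2:**
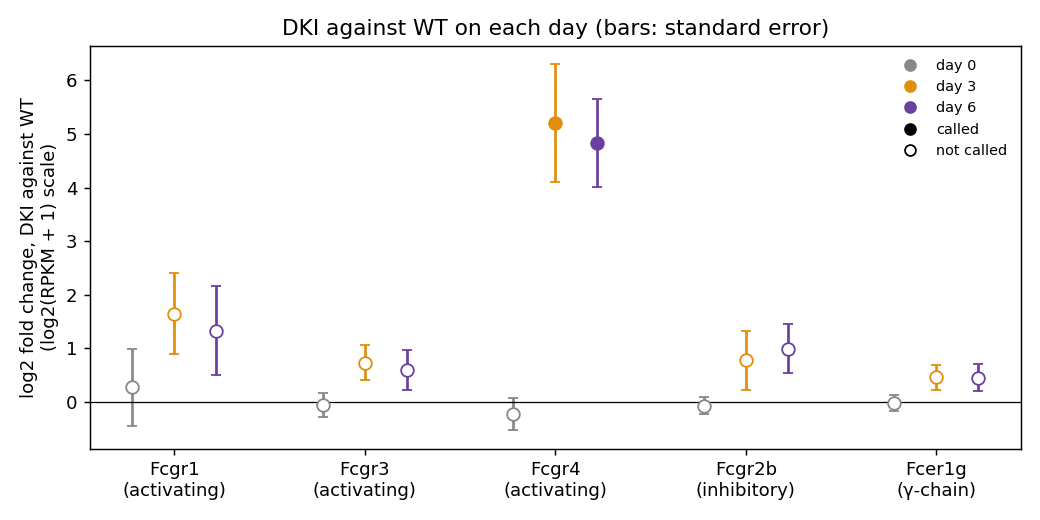
Log2 fold change of each gene, DKI against WT, on the log2(RPKM + 1) scale on days 0, 3 and 6; bars are standard errors and filled points were called. Fcgr4 stands at 5.20 on day 3 and 4.83 on day 6, and the open points of the other 4 genes lie at or below 1.64.

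Whether the genotype effect itself differed between days was tested as an interaction over the 12 libraries of each pair of days. For *Fcgr4* the DKI against WT difference grew by 5.44 on the log2 scale from day 0 to day 3 (SE 1.25, adjusted p = 0.0451) and by 5.06 from day 0 to day 6 (SE 0.96, adjusted p = 0.0224), 1 of 5 members called on each occasion where 2.91% and 2.8% of genes were. Leaving out any 1 library kept the day 3 value between 4.14 and 6.53, and the call held only without DKI day 3 replicate 1 or 2; without any 1 of the other 10 libraries the adjusted p was 0.0587 to 0.110. The day 6 value stayed between 4.25 and 6.01, and its call was lost without WT day 0 replicate 2 or 3, DKI day 0 replicate 1 or 2, WT day 6 replicate 1 or DKI day 6 replicate 3 (adjusted p = 0.0506 to 0.0629). Without the filter on low values neither *Fcgr4* call held (adjusted p = 0.129 and 0.0660), and the day 3 call was lost under median centring (adjusted p = 0.0510) and the day 6 call in the fit of all 18 libraries (adjusted p = 0.0517). For *Fcgr2b* the day 0 to day 6 growth of 1.06 was not called (adjusted p = 0.328), but with the replicate block it was (adjusted p = 0.0407). The interactions of *Fcgr1*, *Fcgr3* and *Fcer1g* were not called, and from day 3 to day 6 limma called 0% of 9985 genes (89 at an unadjusted p under 0.05).

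The balance of activating to inhibitory receptors was compared within each library. The values below are ratios of RPKM, and the tests were made on log2 ratios of RPKM + 1, where the scaling of a library nearly cancels for high genes but not for *Fcgr4* in WT MDCs, whose level is near the added 1. Summed *Fcgr1*, *Fcgr3* and *Fcgr4* RPKM over *Fcgr2b* RPKM was 2.03, 3.36 and 2.39 in untreated WT replicates 1 to 3 and 2.13, 3.47 and 2.34 in untreated DKI. On day 3 it was 1.25, 2.03 and 1.55 in WT and 1.64, 2.18 and 1.76 in DKI. On day 6 it was 1.49, 2.23 and 1.75 in WT and 1.87, 1.87 and 1.13 in DKI. The genotypes overlapped on all 3 days, and DKI was higher in 2, 3 and 1 of 3 same-numbered pairs on days 0, 3 and 6. The log2 ratio, DKI minus WT, was 0.03 on day 0 (SE 0.30, exact two-sided permutation p = 0.8), 0.23 on day 3 (SE 0.24, p = 0.4, exact) and -0.19 on day 6 (SE 0.30, p = 0.7, exact), where 0.1 is the smallest p that 3 against 3 libraries allow. Leaving out libraries turned the sign on day 0 (-0.18 to 0.23) and day 6 (-0.44 to 0.06): on day 6 it was positive without DKI replicate 3.

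Of the ratios of single activating receptors to *Fcgr2b*, that of *Fcgr4* separated the genotypes. The *Fcgr4* to *Fcgr2b* ratio in WT was 0.00147, 0.00389 and 0.00166 on day 3, and in DKI 0.311, 0.0378 and 0.0872. On day 6 it was 0.00298, 0.00524 and 0.0109 in WT and 0.256, 0.0618 and 0.149 in DKI. The groups did not overlap on either day. With 1 RPKM added to both genes the log2 difference was 4.43 on day 3 (SE 0.95) and 3.84 on day 6 (SE 0.73), and from the ratios as printed, without it, 5.58 (SE 0.99) and 4.59 (SE 0.81), each at the smallest exact p of 0.1; the tests with 1 RPKM added stood at 0.6 after Benjamini-Hochberg adjustment over 12 ratio tests. The *Fcgr3* to *Fcgr2b* ratio differed by -0.04 on day 3 (SE 0.36, exact permutation p = 0.9) and -0.40 on day 6 (SE 0.37, exact permutation p = 0.4). That of *Fcgr1* to *Fcgr2b* differed by 0.87 on day 3 (SE 0.44, exact permutation p = 0.3) and by 0.34 on day 6 (SE 0.58, exact permutation p = 0.6). Both ratios overlapped between WT and DKI on every day.

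**Figure D3:**
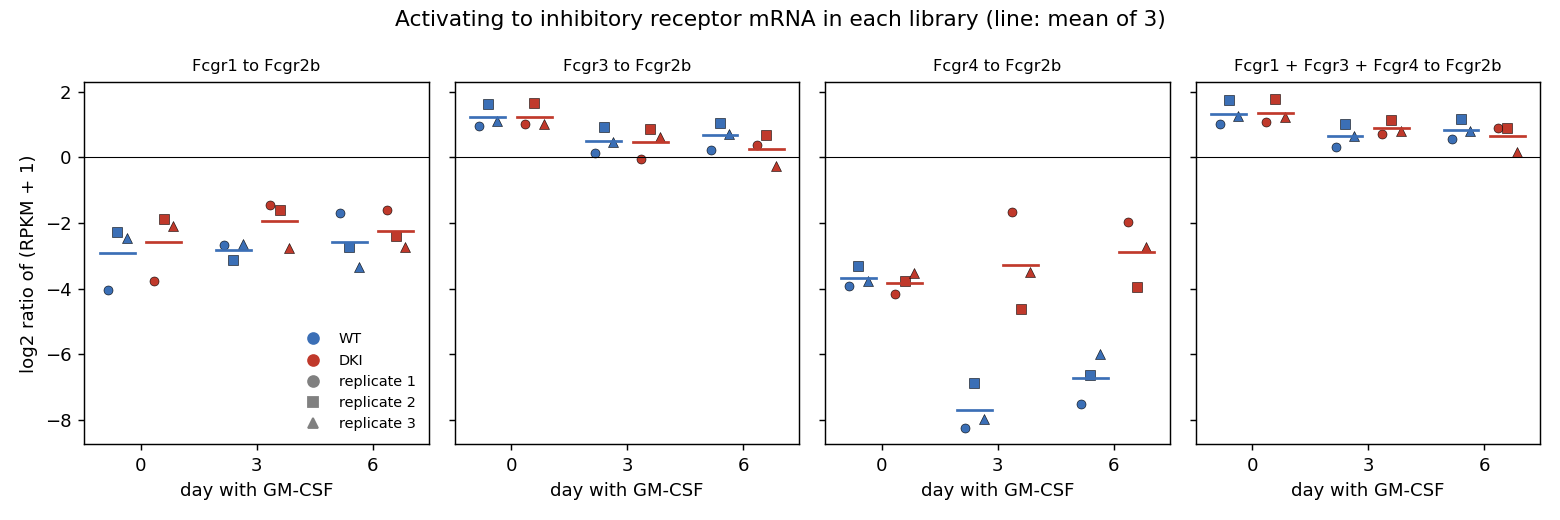
Log2 ratio of activating to inhibitory receptor, each as RPKM + 1, in each library by day with GM-CSF, for Fcgr1, Fcgr3, Fcgr4 and their sum over Fcgr2b, with WT in blue, DKI in red and a line at the mean of 3. The Fcgr4 panel shows WT points from -8.24 to -6.00 on days 3 and 6 with all DKI points above them, and in the panel of the sum the genotypes overlap.

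*Fcgr4* stayed a small part of the α-chain pool even where it was high. Of the summed RPKM of the 4 α-chains, it made up 11.8%, 1.19% and 3.16% in DKI on day 3 and 8.93%, 2.15% and 7.01% on day 6, against 0.0650% to 0.128% in WT on day 3 and 0.120% to 0.396% on day 6. *Fcgr3* and *Fcgr2b* together supplied the bulk in every library, with *Fcgr3* between 36.4% and 70.6% and *Fcgr2b* between 22.4% and 47.1%. The pool itself grew: from 220, 326 and 296 RPKM in untreated WT cells it reached 1215, 646 and 1110 on day 3, and from 219, 292 and 295 in untreated DKI cells it reached 3341, 1128 and 1532. DKI replicate 1, the highest of these, was also the library with the largest *Fcgr4* share.

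**Figure D4:**
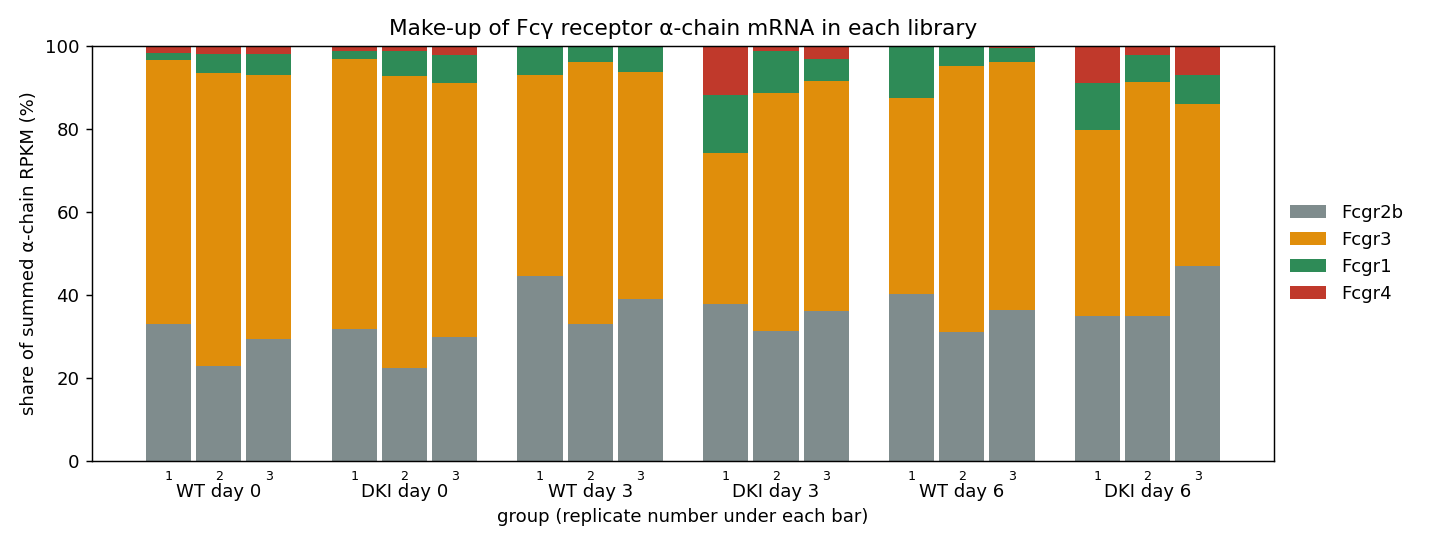
Stacked shares (%) of Fcgr2b, Fcgr3, Fcgr1 and Fcgr4 in the summed α-chain RPKM of each library, in groups of 3 by genotype and day. Fcgr4 forms a visible top segment in DKI MDCs, largest at 11.8% in day 3 replicate 1, and is at most 0.396% in WT MDCs.

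The γ-chain mRNA exceeded the summed activating α-chains before culture, whereas in MDCs the sum ranged from just under the γ-chain level to 2.46 times it. The activating α-chain sum over *Fcer1g* was 0.262, 0.354 and 0.330 in untreated WT cells and 0.255, 0.325 and 0.354 in untreated DKI cells. By day 3 it was 1.23, 0.971 and 1.08 in WT and 2.46, 1.16 and 1.39 in DKI, and by day 6 1.29, 0.925 and 1.10 in WT and 2.17, 0.980 and 1.29 in DKI. The genotypes overlapped on each day, though DKI was higher in 3 of 3 same-numbered pairs on days 3 and 6 (log2 difference 0.54 on day 3, SE 0.34, exact permutation p = 0.2; 0.35 on day 6, SE 0.36, exact permutation p = 0.4). This ratio was chosen after the values were seen.

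Over the 18 libraries, which share the steps of culture and genotype, *Fcgr1*, *Fcgr3* and *Fcgr2b* ran closely together (Pearson r 0.93 to 0.96 of log2(RPKM + 1)). *Fcgr4* ran with them less closely (r 0.54 to 0.59), and *Fcer1g* followed *Fcgr4* about as closely (r = 0.54) but *Fcgr1*, *Fcgr3* and *Fcgr2b* less (r = 0.30, 0.23 and 0.13). The genes most like *Fcgr4*, among 10417, were *Gab1*, *Kif13b* and *Laptm4a* (r 0.96, 0.95 and 0.95), and those most like *Fcgr2b* were the complement genes *C1qc* and *C1qb* (r 0.96 and 0.96) with *Fcgr3* between them (r = 0.96). *Fcgr3* was most like *P2ry6*, *Fcgr2b* and *Ropn1l* (r 0.96 each). The nearest to *Fcgr1* were *Sdc3*, *Gbp7* and *Lgals3bp* (r 0.94 each), and to *Fcer1g* were *Lrmda*, *Sh3gl1* and *Ly6e* (r 0.92, 0.89 and 0.88).

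Other cells that carry these receptors were checked through their markers. Neutrophils express *Fcgr4* and *Fcgr3*, and 8 neutrophil markers summed to 868 to 1252 RPKM on day 0 in both genotypes. On day 3 their sums were 29.3, 537 and 17.2 RPKM in WT replicates 1 to 3 and 411, 508 and 40.8 in DKI, and on day 6 they were 167.3, 18.8 and 19.3 in WT and 539, 16.7 and 9.21 in DKI. *Fcgr4* in the same libraries was at 0.794, 0.829 and 0.721 RPKM in WT and 394, 13.4 and 48.5 in DKI on day 3, and at 1.21, 1.08 and 2.25 in WT and 215, 17.8 and 83.3 in DKI on day 6. DKI replicate 1 thus had the highest *Fcgr4* on both days with neutrophil sums of 411 and 539 RPKM, while WT day 3 replicate 2, at 537, had low *Fcgr4*, and DKI day 6 replicate 3, at 9.21, had *Fcgr4* at 83.3. The log2 fold change, DKI against WT, was above 0 for 7 of the 8 markers on day 3 (median 1.77) and for 7 of 8 on day 6 (median 0.73). The exception was *Cxcr2*, with a mean of 2.49 RPKM in DKI and 11.8 in WT on day 3. On day 6 its means were 2.21 and 8.06 RPKM. On day 0 the largest WT means were those of *Elane*, *Mpo*, *Ngp* and *Camp* (329, 294, 237 and 179 RPKM). *Ly6g* and *Cxcr2* were at most 3.15 and 0.820 RPKM in any day 0 library. Of the 8 markers, *Retnlg*, a resistin-like secreted protein, was called higher in DKI on day 3 (mean 11.2 against 1.34 RPKM, adjusted p = 0.0213). B cells express *Fcgr2b*, and their 6 markers summed to at most 13.99 RPKM in any library, a day 0 value. In MDCs they were low and higher in DKI without overlap, at 0.364, 0.405 and 0.473 RPKM in WT and 3.75, 1.26 and 7.10 in DKI on day 3 and at 0.196, 0.339 and 0.780 in WT and 3.53, 1.21 and 2.28 in DKI on day 6. Mast cells and basophils carry *Fcer1g*, *Fcgr3* and *Fcgr2b*, and the sum of their 7 markers was lower in DKI without overlap, at 37.3 to 50.8 RPKM in WT and 15.1 to 31.6 in DKI on day 3 and 42.2 to 133 in WT and 20.6 to 29.0 in DKI on day 6. Single markers varied: on day 3 *Gata2*, a transcription factor, made up most of the sum (mean 27.9 RPKM in WT and 14.6 in DKI, with overlap) and *Cpa3*, a mast cell protease, had a higher mean in DKI (4.76 against 3.12 RPKM). None of the 7 was called, except that *Kit*, the stem cell factor receptor, was called lower on day 6 with the replicate block (adjusted p = 0.0319; 0.0559 without it). The sums of 6 eosinophil markers overlapped between the genotypes on both days, at 5.38 to 53.8 RPKM over all MDC libraries. Genes of Ly6C-low monocytes, a list of 7 added after the values were seen (*Nr4a1*, *Ace*, *Spn*, *Cd300e*, *Treml4*, *Itgal* and *Pglyrp1*), summed to 144 to 221 RPKM in WT and 79.7 to 99.6 in DKI on day 3. On day 6 they summed to 293, 165 and 126 RPKM in WT and 129.6, 73.6 and 41.3 in DKI. The overlap on day 6 came from *Pglyrp1*, at 75.7 RPKM in DKI replicate 1; the other 6 genes summed to 272, 156 and 99.6 RPKM in WT and 53.9, 71.1 and 36.4 in DKI, without overlap. *Spn* and *Itgal* had the largest WT means on day 3 (73.6 and 73.8 RPKM). The list was not uniform: *Nr4a1* had a higher mean in DKI on day 3 (1.19 against 0.906 RPKM) and day 6 (1.34 against 0.559). *Pglyrp1* also had higher means in DKI on both days, whereas *Ace*, *Spn*, *Cd300e*, *Treml4* and *Itgal* had lower ones. *Ly6c2* itself was at 775, 49.5 and 73.8 RPKM in DKI and 11.2, 39.8 and 17.1 in WT on day 3, higher in DKI in 3 of 3 pairs. On day 6 it was at 157.8, 10.5 and 5.30 RPKM in DKI and 13.1, 12.9 and 8.66 in WT, higher in DKI in 1 of 3 pairs. The 8 monocyte markers, *Ly6c2* among them, summed to 1531 to 3802 RPKM in WT and 8885 to 20946 in DKI on day 3, and to 2833 to 4159 in WT and 10020 to 13973 in DKI on day 6, without overlap. In group means *Lyz2*, the lysozyme of myeloid cells, was the largest part of these sums. It was called higher in DKI on day 3 (mean 13030 against 1894 RPKM, log2 2.88, adjusted p = 0.0468) and day 6 (mean 10363 against 2681 RPKM, log2 1.95, adjusted p = 0.0197). Of 7 tested monocyte markers no other was called, and 6 of 7 had a log2 fold change above 0 on each day. The part of these marker lists in the *Fcgr4* result and in the levels of the other receptors was not tested.

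Genes that act with or against the receptors were compared between DKI and WT by list. Over all genes tested, 3.21% were called higher and 4.21% lower on day 3, and 2.72% higher and 4.82% lower on day 6; lists of 2 to 6 genes are too short to be set against these shares. Among receptors that, like the activating Fcγ receptors, pair with the γ-chain, 1 of 3 tested was higher in DKI on day 3, the C-type lectin *Clec4d* (38.5, 84.2 and 94.7 RPKM in WT, 362, 366 and 251 in DKI, adjusted p = 0.0236; 0.0530 with the replicate block), and none on day 6. Of 2 tested genes of other signalling adaptors, *Hcst*, which has no ITAM and couples NKG2D to PI3-kinase, was higher on day 6 (mean 22.8 against 11.6 RPKM, adjusted p = 0.0426; 0.0572 with the block). Of 6 tested other Fc receptor genes, *Fcrla*, an intracellular Fc receptor-like protein, was lower on day 3 (mean 0.609 against 6.65 RPKM, adjusted p = 0.0270), and of 5 tested on day 6 none was called.

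Inhibitory receptors with ITIMs, the class of *Fcgr2b*, included 3 of 15 tested genes that were higher and 1 that was lower in DKI on day 3, and 2 higher and 1 lower on day 6, where 3.21% and 4.21% of all genes were called higher and lower on day 3 and 2.72% and 4.82% on day 6. With the replicate block the counts were 1 higher and 0 lower on day 3 and 4 higher and 0 lower on day 6, where *Clec12a*, a C-type lectin, was called with the block (adjusted p = 0.0219) and not without it (adjusted p = 0.0652). *Sirpa*, the receptor for the CD47 signal that restrains engulfment, was at 186, 137 and 168.7 RPKM in WT and 452, 389 and 367 in DKI on day 3 (log2 1.30, SE 0.20, adjusted p = 0.0194), and was higher on day 6 as well (log2 1.25, SE 0.25, adjusted p = 0.0373). *Lair1*, a collagen receptor, was at 5.12, 5.72 and 9.44 RPKM in WT and 16.3, 36.1 and 21.96 in DKI on day 3 (log2 1.70, adjusted p = 0.0347; 0.0519 with the block) and was higher on day 6 (log2 1.91, adjusted p = 0.0168). *Cd22*, a sialic acid binding lectin best known from B cells, averaged 11.3 RPKM in DKI against 1.30 in WT on day 3 (adjusted p = 0.0428; blocked 0.0575), whereas on day 6 the block alone gave a call (adjusted p = 0.0623 without it and 0.0432 with it). *Siglecg*, of the same lectin family, was lower on both days (adjusted p = 0.0405 and 0.0352; with the block 0.0623 and 0.0534). The median of the 15 was 0.57 on day 3 and 0.74 on day 6, against -0.11 and -0.17 over all genes.

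Downstream of the ITAM, 2 of 28 tested proximal signalling genes were lower in DKI on day 3 and 3 on day 6, and none was called higher, where 4.21% and 4.82% of all genes were called lower and 7.42% and 7.54% in either direction; so few calls are no result about the list. With the replicate block *Blnk*, an adaptor of B-cell receptor signalling, was called higher on day 6 (log2 1.25, adjusted p = 0.0227; 0.0551 without it). *Pik3cg*, a catalytic PI3-kinase subunit, was at 129, 90.2 and 89.8 RPKM in WT and 32.9, 35.0 and 39.9 in DKI on day 3 (log2 -1.48, SE 0.19, adjusted p = 0.0128) and stayed lower on day 6 (log2 -1.63, adjusted p = 0.0192). *Fyn*, a Src family kinase, was lower on day 3 (log2 -1.58, adjusted p = 0.0145), and the PI3-kinase regulatory subunits *Pik3r1* (log2 -1.59, adjusted p = 0.0308) and *Pik3r5* (log2 -1.19, adjusted p = 0.0331; 0.0551 with the block) were lower on day 6. Among 12 genes of inhibitory signalling, *Inppl1*, which encodes the inositol phosphatase SHIP-2, was higher on day 3 (log2 0.96, adjusted p = 0.0491), and none was called on day 6, where with the replicate block the ubiquitin ligase *Cblb* was called lower (log2 -0.93, adjusted p = 0.0316; 0.0953 without it). The median of the 12 was -0.29 on day 3 and -0.22 on day 6. *Inpp5d*, which encodes SHIP-1, was not called on day 3 (log2 -0.11, adjusted p = 0.798). Of 26 phagocytic cup genes, *Myo1g*, a membrane-bound myosin, was lower on day 3 (log2 -1.44, adjusted p = 0.0259) and on day 6 (log2 -1.55, adjusted p = 0.0362; blocked 0.0675). *Pla2g4a*, the cytosolic phospholipase that releases arachidonic acid, was higher on day 3 (log2 1.09, adjusted p = 0.0401; 0.0859 with the block).

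Reads of similar sequence could blur 2 of the receptors. Of all 50-base stretches of the annotated *Fcgr3* transcripts, 9.58% also occur in *Fcgr2b*, and of those of *Fcgr2b* 6.95% occur in some other gene (146 genes in all), 2.92% in another member, while *Fcgr1*, *Fcgr4* and *Fcer1g* share none with any gene. How such reads were counted is not given in the sources used here.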

How the data were processed

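RNA from 18 mouse monocyte and MDC libraries was sequenced as single-end reads. According to the methods, the authors aligned reads to mm10 with Subread, counted them on RefSeq genes with featureCounts and deposited RPKM values, 1 column per library; strandedness and tool versions are not given in the sources used here. Reads per library were estimated from olfactory-type receptor genes with 1 coding exon, whose lowest values above 0 were taken as 1 read (4 to 12 genes per library); depth is approximate, and precision for low genes is limited by counting error.

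Genes whose mean exceeded 2 RPKM in a group compared were analysed as log2(RPKM + 1), on which fold changes of low genes are understated, with limma 3.58.1 in R 4.3.3 (lmFit, and eBayes with a trend). Calls needed a Benjamini-Hochberg adjusted p under 0.05 over all genes tested and a fold change above 1.5. Limma stood in for the edgeR test of the authors, since the files hold no counts. Receptor ratios were tested by exact two-sided permutation in scipy 1.17.1 with Python 3.11.15. Matching of 20082 of 20298 identifiers to GRCm38.p6 gave symbols; upstream sequences are from RefSeq.

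The main fits had no replicate block. The numbers in the labels were taken to pair WT with DKI, since same-numbered libraries deviated together from their group means in every pair on every day (r 0.69 to 0.87 on day 0, 0.16 to 0.36 on day 3 and 0.34 to 0.41 on day 6). The fitting steps were tested on simulated data. The 5 genes and the pathway lists were chosen with earlier results of these data known. From each list, the genes named are those called on day 3 or day 6, at most 4 by smallest adjusted p, and any called with the block alone, and for each receptor the 3 genes of highest correlation. Alternatives were another pseudocount, no filter, median centring, quantile normalization, the block, a fit of all 18 libraries, no trend, and leaving out libraries.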

Additional observations from a re-analysis of the deposited data

Results flagged for a closer look

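In the main fits the change of *Fcgr4* from day 0 to days 3 and 6 with GM-CSF differed between the genotypes. The effects of GM-CSF and of time in culture cannot be told apart in it. The log2 difference of DKI against WT was larger on day 3 than on day 0 by 5.44 (SE 1.25, adjusted p = 0.0451) and larger on day 6 than on day 0 by 5.06 (SE 0.96, adjusted p = 0.0224), by a limma interaction term over 12 libraries; with the replicate block the adjusted p-values were 0.0366 and 0.0166. Neither call held without the filter on low values (adjusted p = 0.129 and 0.0660), the first was lost under median centring (adjusted p = 0.0510) and without any 1 of 10 of the 12 libraries, and the second was lost in the fit of all 18 libraries (adjusted p = 0.0517) and without any 1 of 6 of the 12. Both tests share the day 0 libraries. WT *Fcgr4* was at most 0.829 RPKM on day 3 and 2.25 on day 6, and DKI *Fcgr4* was at least 13.4 and 17.8.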

How the results depend on the processing

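With the filter on low values removed, the number of members called fell from 1 to 0 for DKI against WT on days 3 and 6 and for the genotype by day terms from day 0 to day 3 and to day 6, and from 4 to 2 for day 3 against day 0 in DKI; this fit tests all 20298 genes. The replicate block gave 0 for DKI against WT on day 3 and 2 for the day 0 to day 6 term, median centring gave 0 for the day 0 to day 3 term, and the fit of all 18 libraries gave 0 for the day 0 to day 6 term; the cause was not tested. Leaving out libraries gave 0 to 1 members called for DKI against WT on day 3 and on day 6 and for both terms that start at day 0, and 2 to 4 for day 3 against day 0 in DKI; fits with fewer libraries have fewer degrees of freedom. Over all genes, 723 and 742 were called between genotypes on days 3 and 6, and 139 and 38 without the filter or 1359 and 1573 in the fit of all 18 libraries; that fit also called 6 genes on day 0 and 16 for day 6 against day 3 in WT, where there were 0. For day 3 against day 0 in DKI, 3394 genes became 2190 without the filter. The genotype by day terms from day 0 to days 3 and 6 had 297 and 290 genes called and 1040 and 1401 with the replicate block; without the filter the first had 166. Leaving out a replicate number from all groups at once was chosen after seeing the data. Fcgr4 was higher in DKI MDCs in all of these fits. Depth limits the WT Fcgr4 values most, which stand for about 29 to 85 reads per MDC library. Values that were not called changed sign when libraries were left out, over these ranges of the log2 difference. The fold changes of DKI against WT, day 0 spanned -0.34 to 0.90 for Fcgr1, -0.25 to 0.10 for Fcgr3, -0.11 to 0.057 for Fcer1g and -0.20 to 0.015 for Fcgr2b. The fold changes of day 6 against day 3, WT spanned -1.05 to 0.46 for Fcgr1. The fold changes of day 6 against day 3, DKI spanned -1.27 to 0.16 for Fcgr1, -0.71 to 0.21 for Fcgr2b and -0.998 to 1.39 for Fcgr4. The genotype by day, day 3 to day 6 terms spanned -0.21 to 0.72 for Fcgr2b, -1.37 to 0.46 for Fcgr1, -0.55 to 0.092 for Fcgr3, -0.22 to 0.21 for Fcer1g and -1.47 to 0.92 for Fcgr4. The ratios of DKI against WT, day 0 spanned -0.21 to 0.93 for Fcgr1 to Fcgr2b, -0.20 to 0.20 for Fcgr3 to Fcgr2b, -0.36 to 0.011 for Fcgr4 to Fcgr2b, -0.18 to 0.23 for activating to inhibitory and -0.15 to 0.12 for activating alpha chains to Fcer1g. The ratios of DKI against WT, day 6 spanned -0.037 to 0.78 for Fcgr1 to Fcgr2b and -0.44 to 0.058 for activating to inhibitory. The ratios of DKI against WT, day 3 spanned -0.23 to 0.22 for Fcgr3 to Fcgr2b. The Fcer1g day 3 to day 6 term of -0.0068 was 0.062 under median centring and 0.028 under quantile normalization. Same-numbered day 0 and day 3 libraries of a genotype did not deviate together (r -0.20 to 0.18), so they share only a number; with that number as a block, 3 in place of 4 members were called for day 3 against day 0 in DKI (Fcgr4 adjusted p = 0.0602). The block changed no other call of the 5 members than those given above and in the report. For the receptor ratios, leaving out the pseudocount was chosen after seeing the data and turned no sign.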
